A study of Mus musculus with 4 samples.

Results

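The genes described here are 10 components and targets of the Notch, Wnt and Hedgehog pathways in cultured mouse B cells, and they were chosen by name, by matching the gene symbols in the deposited RNA tables. They were 10 of 13792 genes listed, and the choice was made with earlier results of the same data known. The Notch pathway has 6 (Notch1, Notch2, Rbpj, Rbpsuh-rs3, Hes1 and Dtx1), the Wnt pathway 3 (Lef1, Ctnnb1 and Apc) and the Hedgehog pathway 1 (Smo).

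The study infected naive B cells of C57BL/6 mice, an inbred strain, with a retrovirus and cultured them with antibodies to IgM and CD40, which take the place of antigen and of T cell help. One library was made after infection with RVKM-Ascl2, the virus that carries Ascl2, and the other after infection with RVKM-Empty. Both groups therefore share the virus backbone, the strain and the stimulation. Each group was 1 library, so no value has a replicate error, no difference has a replicate check, and no p-value is given. The series also holds 2 chromatin samples of germinal centre B cells from KLH-immunised mice of the same strain, an input and an Ascl2 immunoprecipitation, and these were not analysed here.

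In the Notch pathway a ligand on one cell opens a receptor on its neighbour, and the receptor's inner part moves to the nucleus and joins the DNA-binding protein RBPJ to turn on targets such as Hes1. In the spleen, Notch2 signalling is needed for marginal zone B cells. In the Wnt pathway a destruction complex built on APC removes beta-catenin until a Wnt ligand stops it, and beta-catenin then acts with LEF1 and the related TCF proteins. LEF1 is known for its part in early B cell development. In the Hedgehog pathway the receptor PTCH1 holds back the membrane protein SMO until a Hedgehog ligand binds. ASCL2, a basic helix-loop-helix transcription factor, is itself a Wnt target in intestinal stem cells and binds E-box sequences.

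The deposited values are abundances per gene whose unit is not named, here called values. They summed to 763932 in the RVKM-Ascl2 library and 750692 in the RVKM-Empty library, with a median of 10.2 in each. The depth in reads is unknown, and counting error therefore has no interval here. Ascl2, the gene in the virus, was 29.4 in the RVKM-Ascl2 library and 0.0809 in the RVKM-Empty library, which goes with the labels. All 8 B cell markers were listed, with summed values of 2381 in the RVKM-Ascl2 library and 2595 in the RVKM-Empty library. Of the 8 T cell markers, Lck alone was listed, at 17.8 in the RVKM-Ascl2 library and 21.7 in the RVKM-Empty library, and 7 of 10 myeloid markers summed to 51.4 in the RVKM-Ascl2 library and 45.3 in the RVKM-Empty library. Of those 7, 6 were higher in the RVKM-Ascl2 library (median log2 ratio 0.27). Of all genes that reached 1 in either library, 48.4% were higher there. Vcan, at 1.40 with RVKM-Ascl2 and 0.0941 with RVKM-Empty, was the 1 past 2-fold. Cd68, at 10.8 with RVKM-Ascl2 and 16.2 with RVKM-Empty, was the 1 that was lower. Of 6 stromal or packaging-line markers, 3 were listed, summing to 5.42 with RVKM-Ascl2 and 2.73 with RVKM-Empty, mostly Sparc at 4.42 with RVKM-Ascl2 and 2.19 with RVKM-Empty. The listed markers of dendritic cells (2 of 6) summed to 24.4 with RVKM-Ascl2 and 26.6 with RVKM-Empty, and those of erythroid cells and platelets (4 of 6) to 5.45 with RVKM-Ascl2 and 6.47 with RVKM-Empty. The part that other cells may have in the differences below was not tested.

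Promoter sequences from the RefSeq promoter table (GRCm38.p6) are shown for Smo, Rbpj and Lef1. These differed most between the libraries among the 7 of the 10 members searched. Hes1, Apc and Rbpsuh-rs3 were not part of the search, so the member counts below leave them out. Rbpj has 2 windows in the table and Lef1 has 4, and those shown were chosen after the search because they hold an E-box CACCTG or the TCF/LEF core. Each window of 300 bases runs from 250 bases before to 50 after an annotated start, and all are on the plus strand, 5′ to 3′. Capitals mark 4 motifs searched on both strands, which are the E-boxes CAGCTG and CACCTG, the RBPJ core TGGGAA and the TCF/LEF core CTTTGA. Only these exact letters were searched, and other forms of the same sites were not.
Smo, chr6:29735247-29735546: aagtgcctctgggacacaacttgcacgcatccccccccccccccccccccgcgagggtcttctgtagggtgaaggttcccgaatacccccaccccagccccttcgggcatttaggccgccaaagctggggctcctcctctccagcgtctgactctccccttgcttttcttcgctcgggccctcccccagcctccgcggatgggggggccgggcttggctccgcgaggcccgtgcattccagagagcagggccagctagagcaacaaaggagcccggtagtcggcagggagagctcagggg
Rbpj, chr5:53590096-53590395: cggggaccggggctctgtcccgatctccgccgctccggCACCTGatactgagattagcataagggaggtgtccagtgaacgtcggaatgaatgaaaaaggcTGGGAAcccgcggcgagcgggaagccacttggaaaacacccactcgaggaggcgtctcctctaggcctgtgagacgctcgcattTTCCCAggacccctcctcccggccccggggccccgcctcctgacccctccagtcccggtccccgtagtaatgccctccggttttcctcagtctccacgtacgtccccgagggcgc
Lef1, chr3:131110073-131110372: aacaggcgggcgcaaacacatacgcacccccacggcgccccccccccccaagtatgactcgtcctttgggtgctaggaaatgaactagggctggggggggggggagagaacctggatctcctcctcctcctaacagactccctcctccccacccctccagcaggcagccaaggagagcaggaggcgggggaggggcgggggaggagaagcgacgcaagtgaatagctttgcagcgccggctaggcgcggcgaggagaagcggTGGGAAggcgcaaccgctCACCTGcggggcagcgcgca
Lef1, chr3:131156044-131156343: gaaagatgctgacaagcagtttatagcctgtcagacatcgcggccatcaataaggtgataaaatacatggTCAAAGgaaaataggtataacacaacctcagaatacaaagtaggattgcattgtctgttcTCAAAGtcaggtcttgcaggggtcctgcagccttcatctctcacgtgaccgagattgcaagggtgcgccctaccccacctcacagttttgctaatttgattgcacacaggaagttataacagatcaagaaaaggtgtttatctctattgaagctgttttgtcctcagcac

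The Smo window held none of the 4 motifs in the exact forms searched, which leaves other forms of these sites unexamined. The Rbpj window held CACCTG once and the RBPJ core 2 times, once on each strand, and its other window held the RBPJ core once and no E-box searched. The Lef1 windows above held CACCTG and the RBPJ core in the first, and the TCF/LEF core 2 times, as its reverse complement TCAAAG, in the second. CAGCTG was found in 1 of the 12 member windows searched, a Lef1 window that is not shown. Of these 12, CACCTG was found in 2, the RBPJ core in 5 and the TCF/LEF core in 1. Several of these windows overlap. Over the 32851 windows in the table, CAGCTG was present in 16.3%, CACCTG in 20.2%, the RBPJ core in 25.6% and the TCF/LEF core in 16%. Counted by gene, CAGCTG was found in 1 of the 7 members searched and CACCTG in 2. The RBPJ core was found in 2 and the TCF/LEF core in 1. Over the 27025 genes in the table, the 4 motifs were present in 18.3%, 22.6%, 28.3% and 18.2%, in the same order. A match describes letters in a window and shows no binding, and the chromatin data that could bear on it were not used here.

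Differences are given as the log2 ratio of the RVKM-Ascl2 value plus 1 over the RVKM-Empty value plus 1, which understates the difference of low genes. Genes that reached 1 in either library were kept, which left 12283 genes and all 10 members, although 2 members (Rbpsuh-rs3 and Hes1) reached it through the RVKM-Ascl2 library alone. A ratio past 1 or -1 on the log2 scale is called 2-fold. Smo and Rbpsuh-rs3 were the 2 members past that limit, both higher in the RVKM-Ascl2 library, and the other 8 lay within it. Among all genes kept, 1.53% were at least 2-fold higher and 0.716% at least 2-fold lower. Since these ratios were known when the members were chosen, nothing is read from that contrast. The members' median log2 ratio was 0.15, beside -0.01 over all genes kept. Nothing is read from these medians either, for the same reason, and the members' median includes Rbpsuh-rs3 and Hes1.

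**Figure D1:**
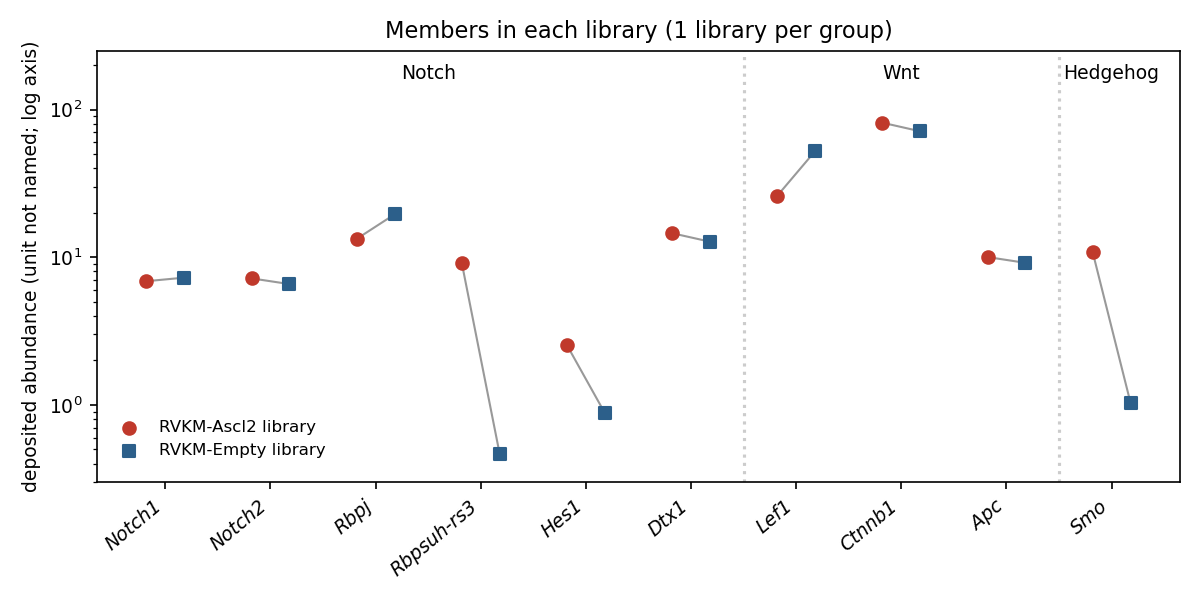
Deposited value of each member (y axis, log scale, unit not named) in the RVKM-Ascl2 library (red circles) and the RVKM-Empty library (blue squares), 1 library each, grouped by pathway. The steepest lines join the values of Rbpsuh-rs3 (9.09 with RVKM-Ascl2, 0.464 with RVKM-Empty) and Smo (10.8 with RVKM-Ascl2, 1.03 with RVKM-Empty), while those of Notch1, Notch2, Dtx1, Ctnnb1 and Apc are nearly level.

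The Notch receptors had like values in both libraries. Notch1 (ENSMUSG00000026923, chromosome 2, 26457902 to 26503822) was 6.87 in the RVKM-Ascl2 library and 7.27 in the RVKM-Empty library, a log2 ratio of -0.07. Notch2 (ENSMUSG00000027878, chromosome 3, 98013538 to 98150367) was 7.18 in the RVKM-Ascl2 library and 6.57 in the RVKM-Empty library, a log2 ratio of 0.11. Notch2 was thus the higher of the pair in the RVKM-Ascl2 library and Notch1 in the RVKM-Empty library, but these gaps are small and have no replicate error to be read against. Both genes were near the middle of the range, at the 42.2 and 41.3 percentile of all genes listed in the RVKM-Ascl2 library for Notch2 and Notch1. Here and in all other bulk values, fewer cells with a transcript and less transcript per cell cannot be told apart.

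Rbpj, the DNA-binding factor on which all Notch receptors act, was lower in the RVKM-Ascl2 library, and its copy Rbpsuh-rs3 was higher. Rbpj (ENSMUSG00000039191, chromosome 5, 53555779 to 53657445) was 13.3 in the RVKM-Ascl2 library and 19.5 in the RVKM-Empty library, a log2 ratio of -0.52 and short of 2-fold. Rbpsuh-rs3 (ENSMUSG00000079575) was 9.09 in the RVKM-Ascl2 library and 0.464 in the RVKM-Empty library, a log2 ratio of 2.79. That was the 10th highest of the 12283 ratios. RefSeq lists the locus under the name Rbpj-ps3 as a pseudogene of 1734 bases on chromosome 6, 46529151 to 46530884, while Rbpj itself spans 101667 bases. How reads were split between the gene and its copy is not stated, and their sequences were not compared here, so neither value is certain alone.

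Summed, the gene and its copy differed little between the libraries. The sum of Rbpj and Rbpsuh-rs3 was 22.4 in the RVKM-Ascl2 library and 19.96 in the RVKM-Empty library, a log2 ratio of 0.16. The copy made up 40.6% of the sum in the RVKM-Ascl2 library and 2.33% in the RVKM-Empty library. The difference in value, RVKM-Ascl2 minus RVKM-Empty, was -6.19 for Rbpj and 8.63 for Rbpsuh-rs3. Whether reads moved from one locus to the other was not tested. If the values are scaled for length, as they appear to be, the sum is one of abundances and not of reads.

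**Figure D2:**
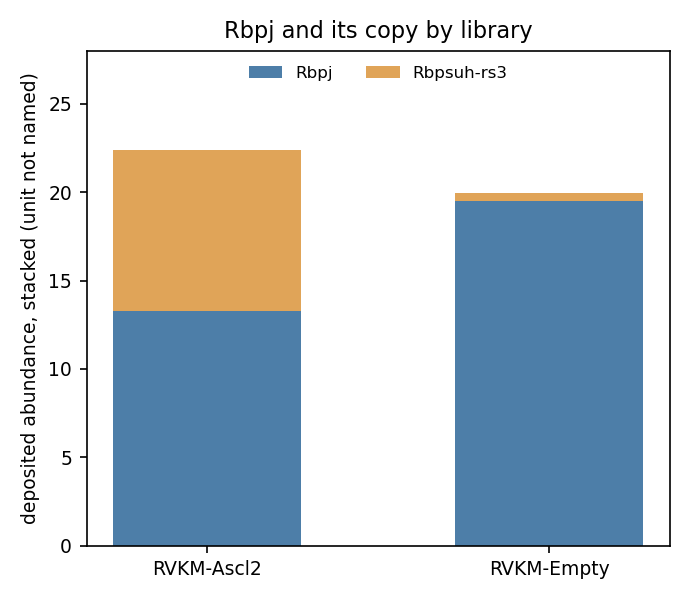
Deposited values of Rbpj (blue) and its copy Rbpsuh-rs3 (orange), stacked on a linear axis from 0, in the RVKM-Ascl2 library (left) and the RVKM-Empty library (right), 1 library each. The stack reaches 22.4 with RVKM-Ascl2 and 19.96 with RVKM-Empty, and the copy fills 40.6% of it with RVKM-Ascl2 and 2.33% with RVKM-Empty.

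Of the 2 Notch targets among the members, Hes1 was the one with the larger difference. Hes1 (ENSMUSG00000022528, chromosome 16, 30065357 to 30067796), a basic helix-loop-helix repressor, was 2.53 in the RVKM-Ascl2 library and 0.879 in the RVKM-Empty library. Its log2 ratio of 0.91 lay just under the 2-fold limit and was 241st from the top among genes kept, but without the added 1 it was 1.53. Dtx1 (ENSMUSG00000029603, chromosome 5, 120680203 to 120711867), a ubiquitin ligase of the Deltex family that is both a regulator and a target of Notch, was 14.5 in the RVKM-Ascl2 library and 12.7 in the RVKM-Empty library (log2 ratio 0.18). Hes1 was the lowest member in the RVKM-Ascl2 library and lower than all but Rbpsuh-rs3 in the RVKM-Empty library. For genes whose higher value lay between 1 and 5, as for Hes1, 1.43% were at least 2-fold higher.

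Lef1 was the member that was lower by the largest ratio in the RVKM-Ascl2 library. Lef1 (ENSMUSG00000027985, chromosome 3, 131110297 to 131224357), which carries beta-catenin to DNA, was 26.0 in the RVKM-Ascl2 library and 52.3 in the RVKM-Empty library. The log2 ratio of -0.98 was the 95th lowest of 12283 and lay just short of 2-fold. Without the added 1 it was -1.01, just past it, and with the RVKM-Ascl2 values rescaled to the same sum it was -1.003, also just past it. Lef1 was the second most abundant member in both libraries. Of genes whose higher value lay between 20 and 100, 0.523% were at least 2-fold lower.

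The other Wnt members differed little. Ctnnb1 (ENSMUSG00000006932, chromosome 9, 120933400 to 120960507), which encodes beta-catenin, was the most abundant member, at 81.4 in the RVKM-Ascl2 library and 71.2 in the RVKM-Empty library (log2 ratio 0.19). Apc (ENSMUSG00000005871, chromosome 18, 34220297 to 34322190), the scaffold of the destruction complex, was 10.02 in the RVKM-Ascl2 library and 9.15 in the RVKM-Empty library (log2 ratio 0.12). Beta-catenin is regulated mainly through the stability of the protein, which RNA does not show.

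Smo had the second largest ratio of the members, after Rbpsuh-rs3, an order that turned with a pseudocount of 5 (log2 ratios of 1.39 for Smo and 1.37 for Rbpsuh-rs3). Smo (ENSMUSG00000001761, chromosome 6, 29735497 to 29761366), the transducer of the Hedgehog signal, was 10.8 in the RVKM-Ascl2 library and 1.03 in the RVKM-Empty library. The log2 ratio of 2.54 was the 12th highest of 12283, and the plain ratio of the values was 10.5. Among all genes listed, Smo stood at the 51.6 percentile of level in the RVKM-Ascl2 library and the 14.4 percentile in the RVKM-Empty library. For genes whose higher value lay between 5 and 20, the range of both Smo and Rbpsuh-rs3, 0.928% were at least 2-fold higher.

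The Smo value in the RVKM-Ascl2 library is written with more digits than most, as 10.800747, which has 8 significant digits. Its RVKM-Empty value, 1.03057, has the usual 6. Values with more than 6 digits occurred in 7 genes (Aida, Epha7, Ets2, Dennd6b, Rgs13, Sh3gl2 and Smo), in 7 values of the RVKM-Ascl2 library and 3 of the RVKM-Empty library, and all 7 genes were at least 2-fold higher in the RVKM-Ascl2 library. The part that the making of these values may have in the differences was not tested. Without those genes, Rbpsuh-rs3 was the 1 member past 2-fold.

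**Figure D3:**
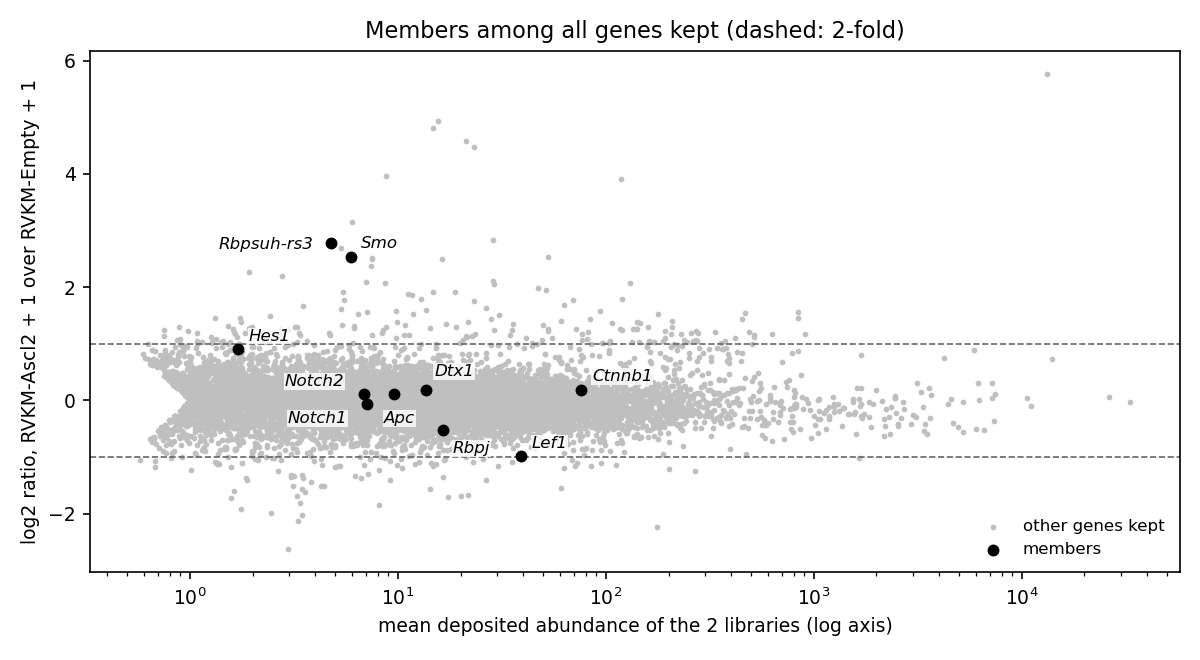
Log2 ratio of the RVKM-Ascl2 value plus 1 over the RVKM-Empty value plus 1 (y axis) against the mean deposited value of the 2 libraries (x axis, log scale, unit not named), for all 12283 genes kept (grey) and the 10 members (black). Dashed lines mark 2-fold. Rbpsuh-rs3 (2.79) and Smo (2.54) lie above the upper line, and Hes1 (0.91) and Lef1 (-0.98) lie just inside the lines.

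In order of level the members ran, in the RVKM-Ascl2 library, from Ctnnb1 and Lef1 through Dtx1, Rbpj, Smo, Apc, Rbpsuh-rs3, Notch2 and Notch1 to Hes1. In the RVKM-Empty library the order was Ctnnb1, Lef1, Rbpj, Dtx1, Apc, Notch1, Notch2, Smo, Hes1 and Rbpsuh-rs3. Smo thus ranked 5 among the members in the RVKM-Ascl2 library and 8 in the RVKM-Empty library, and Rbpsuh-rs3 ranked 7 with RVKM-Ascl2 and 10 with RVKM-Empty. Without replicates, no neighbours in either order can be said to differ. Levels of different genes are comparable only if the values are scaled for gene length.

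The other genes of the 3 pathways are given from lists drawn up from general knowledge, and the lists include the members except Rbpsuh-rs3. Of 172 genes, 108 were listed in the tables and 99 were kept. The limit was passed by 2 of these, Smo and Cr2, both higher in the RVKM-Ascl2 library, while 97 lay within it. Beside these 2 of 99, 1.53% of all 12283 genes kept were at least 2-fold higher and 0.716% at least 2-fold lower. Because the lists were drawn up with earlier results known, nothing is read from that count or from the medians that follow. The median log2 ratio over the 99 genes was -0.06, beside -0.01 over all genes kept, and 41 had a ratio above 0 and 58 below, where 48.4% of all genes kept were above 0. By pathway the medians were -0.03 for 42 Notch genes, -0.06 for 42 Wnt genes and -0.07 for 15 Hedgehog genes.

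Of the Notch target list, 6 genes were kept, with 3 ratios above 0 and 3 below. Cr2, the complement receptor CD21 of mature B cells and a known target of Notch2 signalling, was 30.5 in the RVKM-Ascl2 library and 7.35 in the RVKM-Empty library (log2 ratio 1.91). Hes1 and Dtx1, given above, were also higher there, and the other 3 were lower. Nrarp, a feedback inhibitor of Notch, was 1.60 in the RVKM-Ascl2 library and 2.39 in the RVKM-Empty library, Hes5 was 1.78 with RVKM-Ascl2 and 2.41 with RVKM-Empty, and Il2ra, the alpha chain of the interleukin-2 receptor, was 26.1 with RVKM-Ascl2 and 28.1 with RVKM-Empty. The Notch ligand Jag2 was 2.52 in the RVKM-Ascl2 library and 4.45 in the RVKM-Empty library (log2 ratio -0.63).

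Upstream and nuclear parts of the Notch pathway held no gene past 2-fold. In the list of processing genes and regulators, 24 were kept with a median log2 ratio of -0.02. Lfng, a fringe enzyme that adds sugar to Notch, was 8.74 in the RVKM-Ascl2 library and 13.8 in the RVKM-Empty library, and its relative Rfng was 7.16 with RVKM-Ascl2 and 9.96 with RVKM-Empty. The Notch inhibitor Numbl was 1.65 with RVKM-Ascl2 and 2.59 with RVKM-Empty, while Dtx3l, a Deltex family ligase, was 24.4 with RVKM-Ascl2 and 18.4 with RVKM-Empty. In the nuclear complex, 10 were kept with a median of -0.02. The coactivator gene Maml2 was 3.29 in the RVKM-Ascl2 library and 2.29 in the RVKM-Empty library, and the corepressor gene Ctbp1 was 79.2 with RVKM-Ascl2 and 102 with RVKM-Empty.

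The kept partners of Lef1 were either near equal in the 2 libraries or lower in the RVKM-Ascl2 library, and none was past 2-fold. In the TCF/LEF complex list 11 genes were kept, Lef1 among them. Of these, 4 had a ratio above 0, namely Tcf7l1, Tle3, Bcl9 and Tle4, between 0.02 and 0.07, and 7 had one below 0, where 48.4% of all genes kept were above 0. Those 4 were named after their values were seen. The list's median was -0.20. Tcf7, the closest relative of Lef1 in lymphocytes, was 7.11 in the RVKM-Ascl2 library and 9.39 in the RVKM-Empty library. The beta-catenin cofactor genes Bcl9l and Pygo2 were 7.60 and 12.6 in the RVKM-Ascl2 library, against 12.1 and 16.0 in the RVKM-Empty library. Aes, a short relative of the Groucho corepressors, was 149 with RVKM-Ascl2 and 205 with RVKM-Empty.

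Around Ctnnb1 and Apc the values were mixed. The list of beta-catenin and its destruction complex had 19 genes kept, 7 with a ratio above 0 and 12 below, and a median of -0.10. The related kinase genes differed in direction, with Gsk3a at 37.7 in the RVKM-Ascl2 library and 53.6 in the RVKM-Empty library and Gsk3b at 11.04 with RVKM-Ascl2 and 8.18 with RVKM-Empty. Csnk1e, a casein kinase gene, was 21.0 in the RVKM-Ascl2 library and 27.3 in the RVKM-Empty library, and Frat2, which binds GSK3, was 1.85 with RVKM-Ascl2 and 2.74 with RVKM-Empty.

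Wnt ligands and receptors were mostly low. Of 25 ligand and secretion genes 3 were kept, and Wnt10b was the most abundant, at 20.8 in the RVKM-Ascl2 library and 21.7 in the RVKM-Empty library. Wnt10a was 1.61 with RVKM-Ascl2 and 1.23 with RVKM-Empty, and the Wnt carrier gene Wls was 7.20 with RVKM-Ascl2 and 7.58 with RVKM-Empty. Of the receptor list 8 were kept with a median of -0.07, among them the coreceptor gene Lrp5 at 1.35 in the RVKM-Ascl2 library and 2.42 in the RVKM-Empty library and the frizzled gene Fzd7 at 2.05 with RVKM-Ascl2 and 1.42 with RVKM-Empty. Ryk, a Wnt-binding receptor, was 2.06 with RVKM-Ascl2 and 2.54 with RVKM-Empty. Of the Wnt targets 5 were kept, with Lef1 and Tcf7 as above, the receptor ligase genes Znrf3 and Rnf43 at 1.16 and 1.86 in the RVKM-Ascl2 library against 1.62 and 2.04 in the RVKM-Empty library, and the adhesion receptor gene Cd44 at 133 with RVKM-Ascl2 and 100.4 with RVKM-Empty.

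Smo had the largest ratio among the 15 Hedgehog genes kept. Ptch1, the receptor that holds SMO back and also a target of the pathway, was 19.7 in the RVKM-Ascl2 library and 16.6 in the RVKM-Empty library (log2 ratio 0.24). It was the 1 Hedgehog target of 4 that was listed, and Gli1 was not analysed here. Cdon, a coreceptor gene, was 3.78 with RVKM-Ascl2 and 2.42 with RVKM-Empty (log2 ratio 0.48), and Disp1, which serves ligand release, was 5.51 with RVKM-Ascl2 and 5.99 with RVKM-Empty. Of the signal transduction genes 11 were kept with a median of -0.09 and none past 2-fold. Sufu, an inhibitor of the pathway, was 10.4 in the RVKM-Ascl2 library and 12.8 in the RVKM-Empty library, and Prkaca, a catalytic subunit of protein kinase A, was 24.3 with RVKM-Ascl2 and 29.0 with RVKM-Empty. The cilium transport genes Ift80 and Ift172 were 10.3 and 4.24 in the RVKM-Ascl2 library against 6.80 and 5.75 in the RVKM-Empty library.

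**Figure D4:**
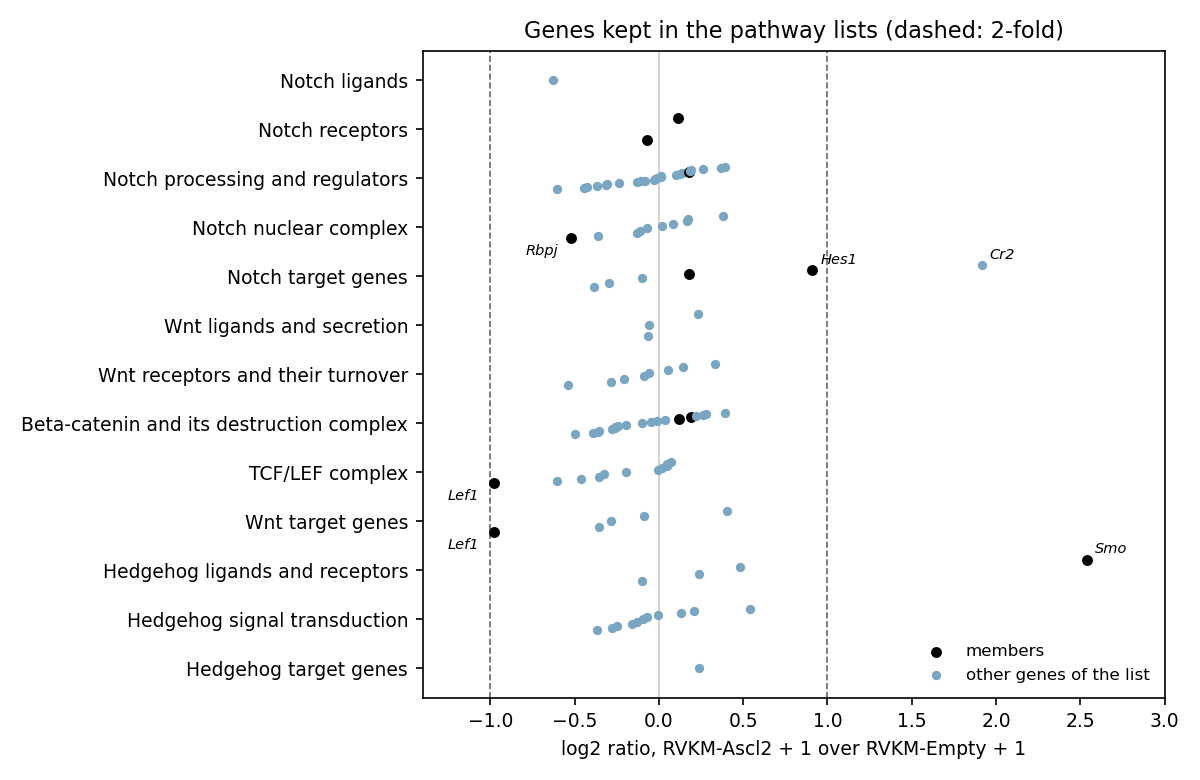
Log2 ratio of the RVKM-Ascl2 value plus 1 over the RVKM-Empty value plus 1 (x axis) for each gene kept in the 13 pathway lists, with members in black and other genes in blue; vertical position within a row only separates points, and a gene on 2 lists is shown in both. Dashed lines mark 2-fold. Smo (2.54) and Cr2 (1.91) are the 2 genes beyond a line, and Lef1 (-0.98) lies next to the other.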

How the data were processed

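RNA of 2 libraries was analysed, 1 per group, with groups taken from the sample titles. The deposited signal is an abundance per gene made by the authors. Per the file headers the columns are a gene identifier, a symbol and a value. The sources used here do not give the unit's name, the quantifier, the annotation or the use of strand. The submitters' processing notes name mm10, Trim Galore, Bowtie2, Picard and MACS2 without versions or roles. The 1793 values under 1 in the RVKM-Ascl2 library took 1767 distinct levels, which goes with scaling by gene length as well as depth. Every gene reached 0.475 in at least 1 library and none was at 0. For the 1842 genes below 1.2 throughout, the ratio of RVKM-Ascl2 over RVKM-Empty values clustered near 1.14 (38 genes, against a median of 12 per interval), so low genes may be somewhat less precise in the RVKM-Ascl2 library.

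Members and lists were chosen with earlier results of these data known. The log2 ratio used a pseudocount of 1, a minimum value of 1 in at least 1 library and a 2-fold limit. No test was possible with 1 library per group. Named were all members, Ascl2, genes with extra digits, and per pathway list each gene past 2-fold and up to 4 others with the largest ratios. Some cell type markers and TCF/LEF genes were named after their values were seen. No gene was named for a like pattern, as 2 libraries give 1 ratio per gene. Coordinates are from RefSeq on GRCm38.p6, the assembly called mm10. Symbols were found for 13752 identifiers. The lists omit a gene that is not reported here. A planned comparison of protein sequences was not made. The steps were tested on simulated data at an assumed depth. Changes were planted there only in genes of higher mean value than all members except Ctnnb1 and Lef1. The trial therefore does not cover the other members, Smo, Rbpsuh-rs3, Hes1, Rbpj, Dtx1, Apc, Notch1 and Notch2. Work was done in Python 3.11.15 with pandas 2.3.3 and numpy 2.4.6.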

Additional observations from a re-analysis of the deposited data

How the results depend on the processing

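No paired analysis was possible because each group has 1 library and the values come from no test, and no library could be left out. The alternatives were pseudocounts of 0.1 and 5, other filters, 1.5-fold and 3-fold limits, 3 rescalings, leaving out genes with extra digits and, added after the data were seen, no pseudocount. Of the recomputed values, 94 kept their direction and side of the limit, or their count within 1.5 times. Beside these, 10 counts moved further, 5 ratios passed the limit and 2 changed sign. Many of the 94 are ratios near 0, far from the limit. With a pseudocount of 0.1 the log2 ratios of Hes1 and Lef1 were 1.43 and -1.003, and without one they were 1.53 and -1.01, past 2-fold in both cases, while the share of all genes past 2-fold was 4.8% with 0.1 and 5.31% without a pseudocount, against 2.25%. Lef1 was also past it, at -1.003, with the RVKM-Ascl2 values rescaled to the same sum. In these 3 settings 1 member, and 1 pathway gene, was at least 2-fold lower, against 0. At 1.5-fold 1 member and 4 pathway genes were lower, and 3 members and 3 pathway genes were higher. Of all genes kept, 90.7% lay within 1.5-fold. Without genes of more than 6 digits 1 member and 1 pathway gene were higher. Notch1 turned to 0.0102 with the RVKM-Ascl2 values rescaled to the same sum without Pcdh15 and immunoglobulin genes, so its sign is not read as a direction. Over the pseudocounts tried the log2 ratio ran from 1.39 to 3.39 for Smo and from 1.37 to 4.29 for Rbpsuh-rs3, past 2-fold in each. The sum of Rbpj and Rbpsuh-rs3 had a log2 ratio of 0.16, and Rbpj alone -0.52. Depth is unknown, so what it limits for low genes such as Hes1 cannot be stated.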

Other observations

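The rows of both tables follow the plain log2 ratio of the RVKM-Ascl2 over the RVKM-Empty value, from lowest to highest, with 2 breaks among 13792 rows at a tolerance of 0.0001. Smo is row 13761 and stands in its place by that order, with a plain log2 ratio of 3.39 between neighbours at 3.38 and 3.44.

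A second member also has a copy in the tables. Apc-ps1, chosen after its values were seen and named as a pseudogene of Apc, was 0.563 in the RVKM-Ascl2 library and 0.732 in the RVKM-Empty library, while Apc was 10.02 with RVKM-Ascl2 and 9.15 with RVKM-Empty. The copy of Apc was thus low in both libraries, unlike that of Rbpj.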
